A study of Mus musculus with 4 samples.

Results

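Clu, Itm2a, Itm2b, Itm2c, App and Aplp2 were followed in the postnatal mouse molar. These 6 genes encode the secreted chaperone clusterin, the BRICHOS-domain proteins of the Itm2 family, and the amyloid precursor protein with its close relative Aplp2. Every probe set that names exactly 1 of these symbols in the platform annotation was taken, which gave 19 of 45101 probe sets and 6 of 18193 named genes. A probe set is a group of short probes that together report a transcript on the array. The genes were chosen with their signals on these arrays known, so their levels are given as a description, without a test.

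RNA came from 1 pool of molars that had been removed by hand from 60 Swiss Webster pups, male and female, aged 1 to 10 days after birth. It was hybridised to 4 Affymetrix Mouse Genome 430 2.0 arrays, which form 1 group with no treatment, allele or other condition. The arrays share the pool, so each SD is technical and covers no variation between animals, ages or cell types. Whether each array had a labelling reaction of its own is not stated in the labels, so the SDs may or may not include that step. The study's comparison with control tissues rests on other arrays that were not analysed here.

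Signals are MAS5 values on a linear scale, and the number of arrays limits their precision. Median signals of the arrays ranged from 746 to 872. A probe set was called above background when its signal exceeded, on each of the 4 arrays, the 95th percentile of 84 probe sets for olfactory, vomeronasal and taste receptors, and a gene when any of its probe sets did. This threshold was 1168 ± 139 signal units (SD, n = 4). By this rule 51.6% of named genes and 42.4% of probe sets that name 1 gene were above background. Across the probe sets so called, Pearson's r between arrays (log2 scale) lay between 0.970 and 0.980 for the 6 pairs of arrays. Markers of the labelled tissue were bright: the enamel matrix gene Amelx had 198666 ± 42644 and the dentin gene Dspp 111371 ± 20102 (SD, n = 4). All 5 ameloblast markers and all 4 measured odontoblast and osteoblast markers were above background. Each probe set has its own affinity, so signals of different probe sets are not amounts of mRNA that can be ranked against each other. In bulk RNA, more cells of a type and more RNA per cell cannot be told apart.

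Clusterin, also called apolipoprotein J, is a glycoprotein that binds unfolded proteins and lipids outside cells, blocks assembly of the complement membrane attack complex and binds amyloid-beta peptides. The Itm2 proteins are membrane proteins whose BRICHOS domain has chaperone activity. Convertases of the furin family trim their C-terminal end, and mutations that lengthen the peptide released from human ITM2B cause familial British and Danish dementia. ITM2B protein binds the amyloid precursor protein and slows its cutting by secretases. App and Aplp2 encode membrane proteins that alpha- or beta-secretase cuts outside the membrane and gamma-secretase cuts within it.

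Upstream sequences of the Itm2 paralogues are shown because the 3 members of this family were all above background while their start regions differ in base composition. Each sequence covers the 250 bases before the annotated start, 5′ to 3′ on the gene's strand, from RefSeq in build GRCm38.p6. Capitals mark the GC box GGGCGG, searched on both strands, which also appears as CCGCCC.
Itm2a, chrX:107403361-107403610, minus strand: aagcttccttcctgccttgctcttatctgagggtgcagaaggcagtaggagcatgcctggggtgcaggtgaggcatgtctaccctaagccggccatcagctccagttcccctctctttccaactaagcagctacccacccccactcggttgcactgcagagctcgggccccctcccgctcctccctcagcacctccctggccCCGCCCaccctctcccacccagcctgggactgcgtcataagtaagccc
Itm2b, chr14:73385290-73385539, minus strand: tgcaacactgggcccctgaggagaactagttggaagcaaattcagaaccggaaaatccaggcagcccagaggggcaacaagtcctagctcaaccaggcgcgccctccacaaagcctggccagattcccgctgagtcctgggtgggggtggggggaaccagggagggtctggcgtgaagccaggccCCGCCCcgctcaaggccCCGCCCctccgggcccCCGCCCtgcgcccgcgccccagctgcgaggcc
Itm2c, chr1:85894260-85894509, plus strand: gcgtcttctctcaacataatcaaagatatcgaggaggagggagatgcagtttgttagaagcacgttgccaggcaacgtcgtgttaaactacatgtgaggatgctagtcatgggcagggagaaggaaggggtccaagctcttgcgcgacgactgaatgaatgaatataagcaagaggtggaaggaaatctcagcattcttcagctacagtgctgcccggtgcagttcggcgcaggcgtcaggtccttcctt
The GC box occurred 3 times upstream of Itm2b, 1 time upstream of Itm2a and 0 times upstream of Itm2c. Among 32851 promoters of this length in the table, 32.7% held it at least 1 time. G and C made up 68.8% of the Itm2b sequence, 62.8% of that of Itm2a and 50.8% of that of Itm2c, against a median of 52.4% over the table. The GC box occurred 3 times upstream of Aplp2 and 1 time upstream of App. CCAAT, on either strand, occurred 2 times upstream of Aplp2 and 0 times upstream of the Itm2 genes and App (33.8% of all promoters), and TATAAA occurred upstream of none of these 5 genes (12.4% of all promoters). The table matched 5 of the 6 genes, all but Clu. These matches describe the letters of the window and say nothing about factor binding in the tooth.

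All 6 genes were above background on all 4 arrays, where 51.6% of named genes were. Of their 19 probe sets, 16 were above background, against 42.4% of probe sets. Nothing is read from these shares, since the genes were chosen from their signals. The 3 probe sets that were not above background belong to Itm2b (1) and App (2), and each stood below the threshold on all 4 arrays.

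**Figure D1:**
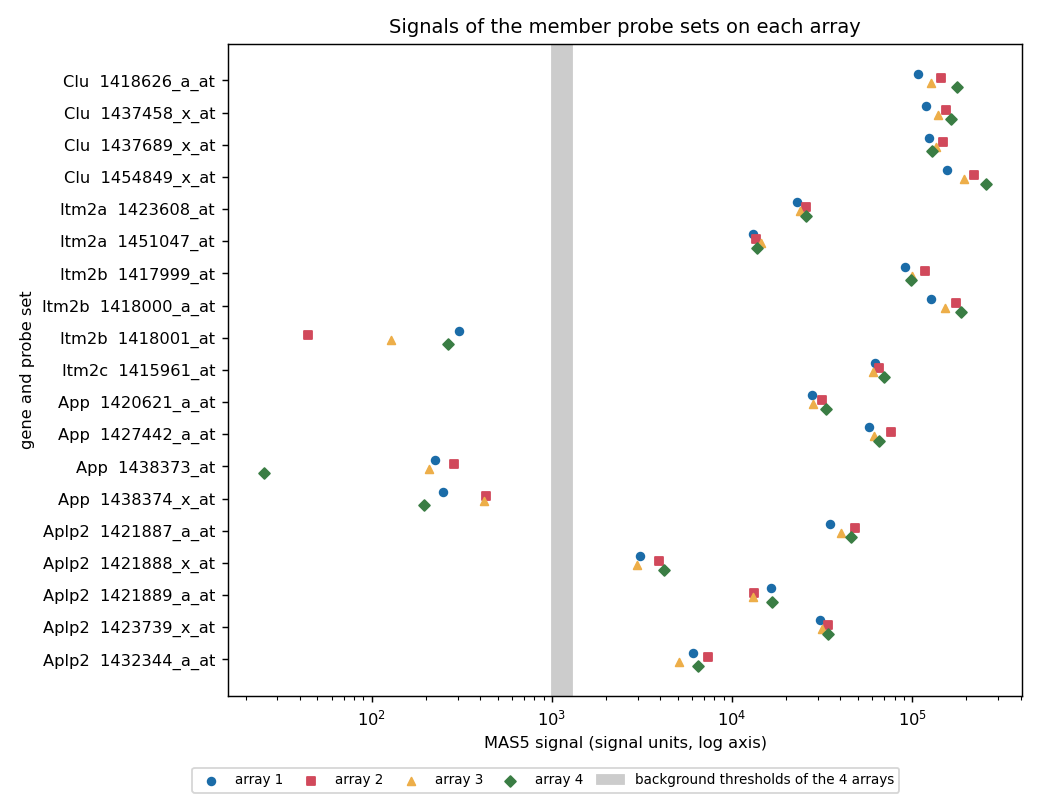
MAS5 signal of each of the 19 probe sets of the 6 genes on a log axis, with 1 symbol per array and a grey band from the lowest to the highest background threshold of the 4 arrays (1006 to 1297). All 4 Clu probe sets read 108324 or more on each array, while 1 Itm2b and 2 App probe sets lie left of the band.

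Clusterin probe sets were among the brightest on the arrays. Its probe set 1454849_x_at read 156164 on array 1, 219805 on array 2, 193751 on array 3 and 257968 on array 4, with a mean of 206922 ± 42901 (SD, n = 4). It was the brightest of all 45101 probe sets on arrays 2, 3 and 4, and ranked 2 on array 1, where a probe set of Col1a2, a collagen I chain, was brightest. Probe set 1418626_a_at read 108324, 144230, 127470 and 178042 on arrays 1 to 4, following the same order of arrays. Probe set 1437458_x_at read 119271, 153289, 138724 and 163625, again lowest on array 1 and highest on array 4. The fourth, 1437689_x_at, read 124051, 147599, 136263 and 129266 and was highest on array 2. All 4 probe sets thus ranked among the brightest 93 on each array, and 3 of the 4 agreed on which array was brightest.

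The probe sets of clusterin differed in how they spread over arrays. Between 1454849_x_at and 1418626_a_at the signal ratio was steady, from 1.44 to 1.52 over the 4 arrays. Between 1454849_x_at and 1437689_x_at it was 1.26 on array 1, 1.49 on array 2, 1.42 on array 3 and 2.00 on array 4. The SD of log2 signal was 0.31 for the first of these probe sets and 0.11 for 1437689_x_at. Probe set 1418626_a_at carries _a_at, which marks probes shared between transcripts of the same gene. The others carry _x_at, which marks probes that may be shared with other sequences. Clu thus has no probe set without such a suffix here.

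Itm2b, a member of the family expressed in most tissues, had a pair of bright probe sets. Probe set 1418000_a_at read 127403 on array 1, 174584 on array 2, 152935 on array 3 and 185889 on array 4 (160203 ± 25789, SD, n = 4). Probe set 1417999_at, which has no shared-sequence suffix, read 90678, 117549, 100180 and 98602 (101752 ± 11322). Both were lowest on array 1, but they were highest on different arrays, 4 and 2. Their ratio ran from 1.41 on array 1 to 1.89 on array 4.

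The remaining Itm2b probe set, 1418001_at, read 305 on array 1, 44.5 on array 2, 129 on array 3 and 266 on array 4. It never reached the threshold, although the annotation ties all 3 Itm2b probe sets to the same RefSeq transcript. Its readings were 0.040 to 0.30 times the threshold, while 1418000_a_at stood at 118 to 159 times it. No fold between them is given, since the dim readings are under background and differed 6.86-fold between arrays.

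Itm2c, the paralogue known mainly from brain, had 1 probe set, 1415961_at, free of shared-sequence suffixes. It read 62076 on array 1, 65386 on array 2, 60276 on array 3 and 69947 on array 4 (64421 ± 4248, SD, n = 4). The arrays were close, with the highest 1.16 times the lowest.

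Itm2a, described in early cartilage and bone cells, in muscle and in activated T cells, had 2 probe sets without such suffixes, both above background. Probe set 1423608_at read 22896.5, 25674, 23970 and 25819 on arrays 1 to 4 (24590 ± 1407, SD, n = 4). Probe set 1451047_at read 13125, 13622.5, 14404 and 13784 (13734 ± 527). The highest array was 1.13 times the lowest for the first and 1.10 times for the second. Markers of the cell types named above differed, where 51.6% of all named genes were above background. Of odontoblast and osteoblast markers, 4 of 4 measured ones were above it (Ibsp, a bone and dentin matrix gene, 24189 ± 1339). The same held for 1 of 5 cartilage markers (Col2a1, 4118 ± 918), 5 of 5 skeletal muscle markers and 0 of 4 measured T cell markers. The part of those cells in the Itm2a signal was not tested.

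App had a pair of bright probe sets and a pair of dim ones. Probe set 1427442_a_at read 57409 on array 1, 76400 on array 2, 61120 on array 3 and 65787 on array 4 (65179 ± 8228, SD, n = 4). Probe set 1420621_a_at read 27659, 31646, 28118 and 33283 (30176 ± 2732). The ratio of these probe sets stayed between 1.98 and 2.41. Both carry the suffix _a_at, which marks probes that several transcripts of the same gene share.

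The other App probe sets stood far below. Probe set 1438374_x_at read 248, 429, 423 and 196 (324 ± 120, SD, n = 4), and 1438373_at read 226, 288, 208 and 25.2 (187 ± 113). The annotation ties neither to a source sequence, but the same holds for the bright Clu probe set 1454849_x_at and both Itm2a probe sets. The call for App therefore rests on the 2 probe sets with the suffix _a_at, whose probes are shared between transcripts of the same gene. That suffix was counted with the others as a shared-sequence suffix. Without such probe sets App was not above background, while 46.6% of the named genes then left were.

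Aplp2 was the member with the most probe sets, 5, and all were above background. Probe set 1421887_a_at read 35129 on array 1, 47910 on array 2, 40412 on array 3 and 45592.5 on array 4 (42261 ± 5695, SD, n = 4). Probe set 1423739_x_at read 30877, 34031, 31504 and 34287 (32675 ± 1736). Probe set 1421889_a_at read 16482, 13312, 13121.5 and 16765 (14920 ± 1972), and was the only one of the 16 probe sets above background to read higher on array 1 than on both array 2 and array 3. Probe set 1432344_a_at had 6273 ± 962 and 1421888_x_at had 3556 ± 614. The lowest of all 5, 1421888_x_at, was still 2.30 to 3.58 times the threshold. The annotation ties 1421887_a_at, 1421888_x_at and 1421889_a_at to 1 GenBank sequence, yet the first was 11.9 times the second in the mean over arrays, with a range from 10.8 to 13.6.

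Arrays deviated in the same direction for most of these probe sets. Of the 16 above background, 12 were lowest on array 1 and 4 on array 3, while 10 were highest on array 4, 5 on array 2 and 1 on array 3. Their median deviation from the mean of the 4 arrays was -0.14 on array 1, 0.11 on array 2, -0.06 on array 3 and 0.12 on array 4, in log2 units. The brightest 1% of all probe sets (444) had median deviations of -0.10, 0.05, -0.04 and 0.12, in the same directions. Over all 16102 probe sets above background the medians lay between -0.01 and 0.01. The order of arrays was thus shared with other bright probe sets on the same arrays.

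**Figure D2:**
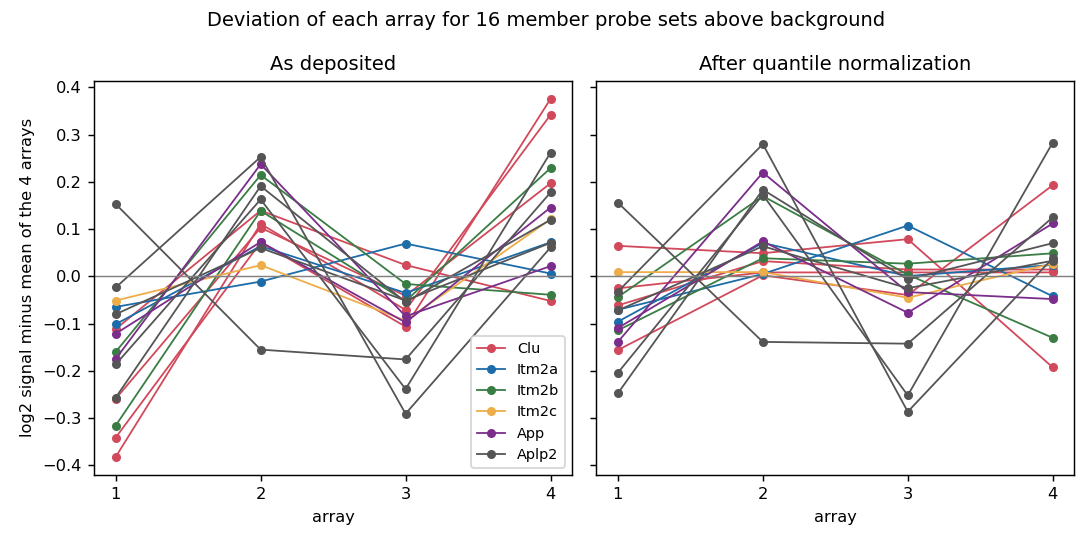
Log2 signal minus the mean of the 4 arrays for the 16 probe sets of the 6 genes above background, as deposited (left) and after quantile normalization (right). Each line joins the readings of 1 probe set and marks no order of arrays. The Clu probe set 1454849_x_at runs from -0.38 on array 1 to 0.34 on array 4 as deposited, and stays between -0.03 and 0.01 after quantile normalization.

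Quantile normalization, which gives all arrays the same distribution of signals, narrowed the spread of the brightest probe sets. The SD of log2 signal of Clu 1454849_x_at fell from 0.31 to 0.02, and that of Itm2b 1418000_a_at from 0.24 to 0.08. For a probe set that ranks first on nearly every array this follows from the method, since it replaces each signal by the mean at that rank. Aplp2 1421888_x_at went from 0.25 to 0.27 and Clu 1437689_x_at from 0.11 to 0.13. The median SD of the 16 probe sets was 0.18 before and 0.12 after, while over all probe sets above background it was 0.17 before and 0.16 after. Over the brightest 1% of all probe sets it was 0.13 before and 0.09 after. The 16 thus spread more than the brightest 1% in both states, and both sets narrowed.

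**Figure D3:**
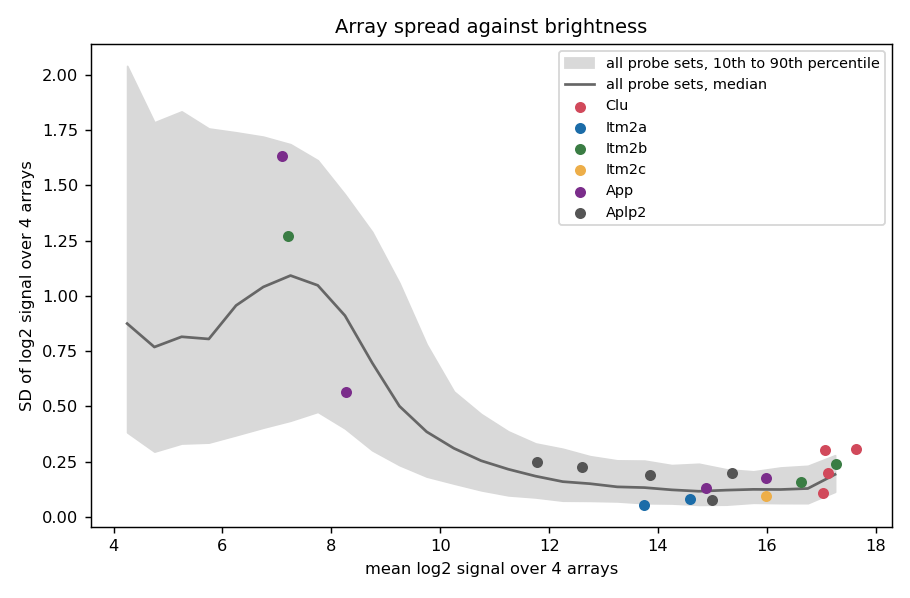
SD of log2 signal over the 4 arrays against mean log2 signal, for the 19 probe sets of the 6 genes (points) and all probe sets in steps of 0.5 log2 units (line, median; band, 10th to 90th percentile). The 3 probe sets below background have SDs from 0.56 to 1.63, and the 16 above it from 0.06 to 0.31.

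The pool gives no contrast between conditions, so only nearness in signal could be described, as the root mean square difference of log2 signal over the 4 arrays between the brightest probe sets of 2 genes. It uses the signals the genes were chosen from and carries probe affinity, and so shows no likeness in expression. For Clu, at the top of the scale, the nearest were Amelx (0.07), Col1a2 (0.10) and Rpl41 (0.12). For Itm2b they were Rpl4 (0.06), Ambn (0.06) and Rps3a1 (0.10). Amelx and Ambn encode enamel matrix proteins, and Rpl4, Rpl41 and Rps3a1 ribosomal proteins. Itm2c lay nearest to Perp (0.02), Lamp1 (0.03) and Cox6b1 (0.04), and Itm2a to H2az2 (0.04), Rmnd5a (0.04) and Psmb5 (0.05). App lay nearest to Aldoa (0.11), Arsb (0.11) and Ptms (0.11), and Aplp2 to Hnrnpdl (0.05), Lox (0.05) and Srsf5 (0.07).

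Genes that act with these 6 were taken from 10 lists of 65 entries, of which 59 were measured by a probe set naming that gene alone. Of the 59, 38 were above background (64.4%), against 51.6% of all named genes, and their median log2 signal was 11.78, against 10.69 over all named genes. This rule favours genes with many probe sets: with the median probe set of each gene the count was 27 of 59 (45.8%), against 34.7% of all named genes. The lists differed widely, from all members to 1 of 8. Each list count below stands against that 51.6%, or against 34.7% where the median probe set is named. Of the 38 genes, 28 had more than 1 probe set, and in 16 of these at least 1 probe set was not above background.

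**Figure D4:**
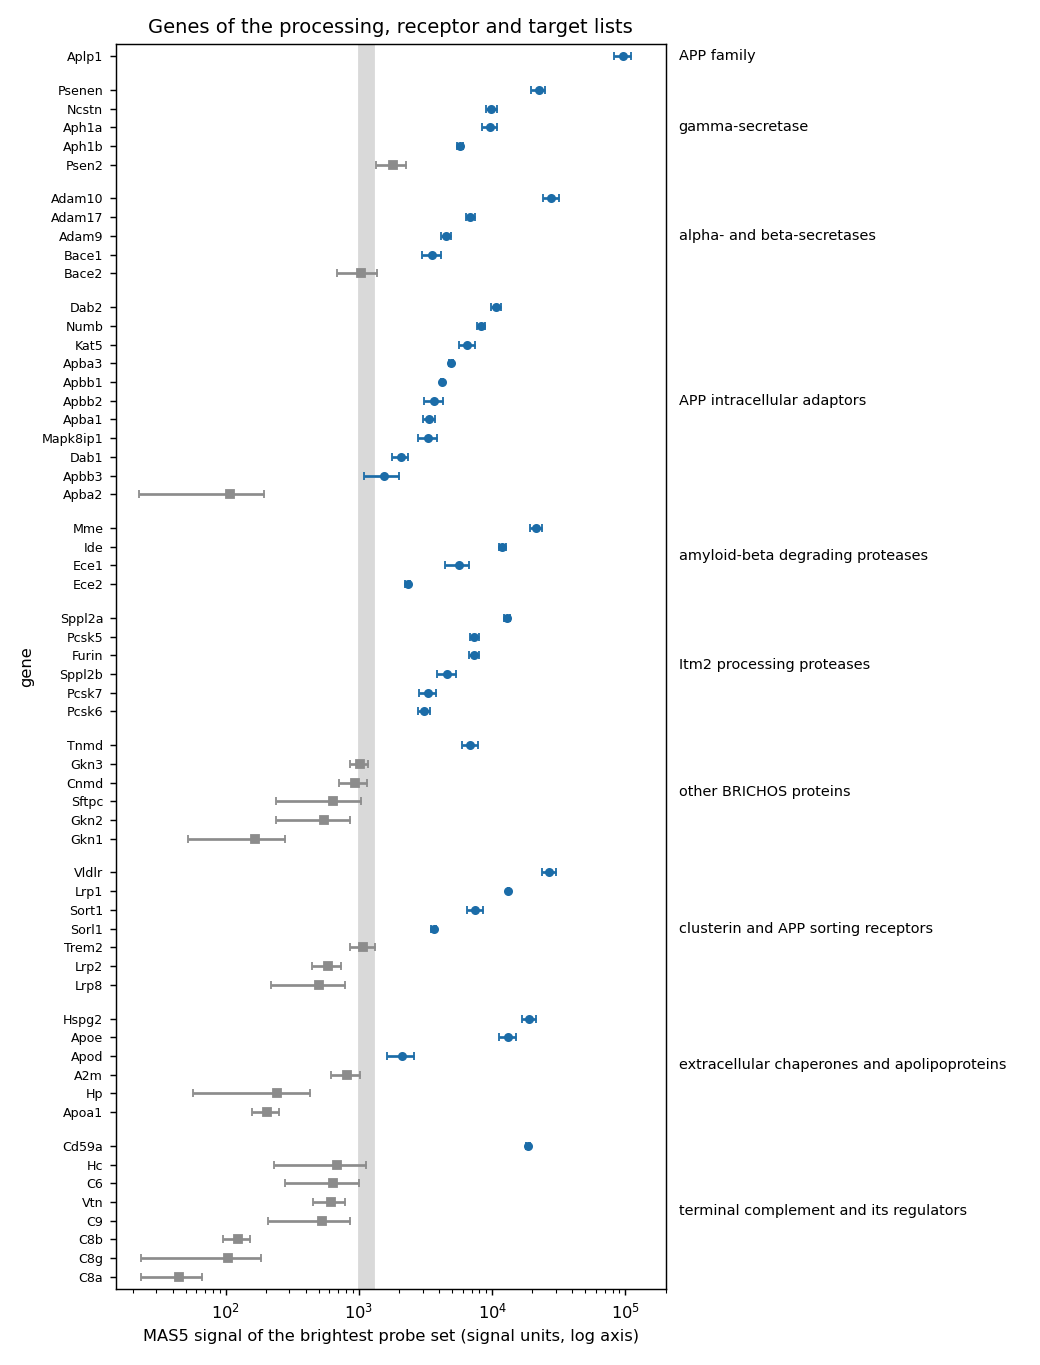
Mean MAS5 signal ± SD (n = 4 arrays) of the brightest probe set of 59 genes in 10 lists, on a log axis, with a grey band from the lowest to the highest background threshold. Blue circles are the 38 genes above background on all 4 arrays and grey squares the 21 that were not; the Itm2-processing and amyloid-beta degrading proteases all lie right of the band and 7 of 8 complement genes do not.

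Aplp1, the other relative of App, is known mainly from neurons. Its probe set 1435857_s_at read 83794 on array 1, 114396 on array 2, 87856 on array 3 and 98561 on array 4 (96152 ± 13665, SD, n = 4). Its other probe set, 1416134_at, has no shared-sequence suffix and read 37209, 34866, 37258 and 46049 (38846 ± 4931). Both were far above the threshold on each array. Of 5 neuron markers, Stmn2 (5174 ± 508) and Tubb3 (3250 ± 707) were above background, Syt1 passed on 3 arrays, and the synaptic gene Snap25 (357 ± 90.4) and the neurofilament gene Nefl (551 ± 110) passed on 0 arrays. The part of nerve tissue in the Aplp1 signal was not tested.

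Secretases that cut App-family proteins were mostly above background. Of 5 alpha- and beta-secretase genes 4 passed. Adam10, the main alpha-secretase and also a sheddase of Itm2b, read 31626, 28618, 28698 and 22405 on arrays 1 to 4 (27837 ± 3882, SD, n = 4) by its brightest of 4 probe sets, while its dimmest, 1460083_at, had 239 ± 84.7. Adam17 had 6870 ± 554 and Adam9 4515 ± 402. Bace1, the beta-secretase of neurons, had 3550 ± 565, and its relative Bace2 had 1030 ± 345 and passed on 2 arrays.

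Gamma-secretase genes passed in 4 of 5 measured cases, and in 3 of 5 with the median probe set, where Ncstn did not pass. The small subunit gene Psenen had 22285 ± 2587, the nicastrin gene Ncstn 9841 ± 933, Aph1a 9617 ± 1284 and Aph1b 5770 ± 306 (SD, n = 4). Psen2, a catalytic subunit gene, read 2252, 1714, 2029 and 1199 and missed the threshold on array 4 alone, so without array 4 it was above background.

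Proteases that process Itm2 proteins were all above background, 6 of 6. Furin, the convertase that trims Itm2b, had 7311 ± 644, and the related convertases Pcsk5, Pcsk7 and Pcsk6 had 7351 ± 566, 3294 ± 474 and 3101 ± 313 (SD, n = 4). Sppl2a and Sppl2b, intramembrane proteases that cut Itm2b after Adam10, had 12926 ± 728 and 4585 ± 748. Amyloid-beta degrading proteases also passed in 4 of 4 cases, with neprilysin (Mme) at 21389 ± 2290 and insulin-degrading enzyme (Ide) at 11927 ± 707. With the median probe set, Pcsk5 and the amyloid-beta degrading gene Ece2 did not pass. The counts were then 5 of 6 and 3 of 4. Pcsk5 was above background by 2 of its 5 probe sets, and not without shared-sequence suffixes.

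Adaptors that bind the cytoplasmic tail of App and its relatives were above background for 10 of 11. Dab2, an endocytic adaptor, had 10734 ± 995 and Numb 8221 ± 549 (SD, n = 4). The Fe65 gene Apbb1 had 4179 ± 71.7 and Apba3, of the X11 family, 4891 ± 187. Apba2, another X11 gene, had 107 ± 85.0 and passed on 0 arrays. When the median probe set stood for each gene, the adaptor count was 5 of 11, against 34.7% of all named genes.

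Receptors that take up clusterin or sort App were above background for 4 of 7, near the 51.6% of all named genes. Vldlr read 22800, 25671, 29990 and 28604 on arrays 1 to 4 (26766 ± 3199, SD, n = 4) by its brightest of 6 probe sets. That probe set, 1434465_x_at, carries the suffix for probes that may be shared with other sequences. The next brightest, 1417900_a_at, had 8945 ± 1362, and 5 of the 6 were above background. Lrp1 had 13219 ± 176, Sort1 7474 ± 1053 and Sorl1 3628 ± 146. Lrp2 (megalin), a clusterin receptor of absorptive epithelia, had 590 ± 145 and Lrp8 had 505 ± 285, and both passed on 0 arrays. With the median probe set the count was 2 of 7, against 34.7% of all named genes.

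Other secreted chaperones and apolipoproteins gave 3 of 6, near the 51.6% of all named genes. With the median probe set they gave 2 of 6 (34.7% of all named genes). Apoe had 13215 ± 1880 and Apod 2093 ± 474 (SD, n = 4). The list also held Hspg2, at 19037 ± 2259, which encodes the basement membrane proteoglycan perlecan and is neither a chaperone nor an apolipoprotein. The extracellular chaperone genes A2m (814 ± 196) and Hp (242 ± 185), and Apoa1 (203 ± 45.9), passed on 0 arrays. Liver markers, which would mark the main source of several plasma apolipoproteins, were above background in 0 of 4 measured cases. The source of the apolipoprotein signals was not tested.

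Terminal complement genes, whose assembly clusterin blocks, were mostly not above background, with 1 of 8 passing. That gene was Cd59a, a membrane inhibitor of the same complex, which read 18256, 18991, 17916 and 19355 on arrays 1 to 4 (18629 ± 660, SD, n = 4). Hc (complement C5) had 682 ± 452 and passed on 1 array. The component genes C6, C8a, C8b, C8g and C9, and the inhibitor Vtn, had means from 44.8 to 642 and passed on 0 arrays. Low expression can also give readings under the threshold.

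Among other genes with a BRICHOS domain, 1 of 6 was above background. Tnmd (tenomodulin), of tendon and ligament cells, read 6270, 7648, 7675 and 5808 (6850 ± 955, SD, n = 4). Its cartilage paralogue Cnmd (chondromodulin) had 936 ± 222 and passed on 1 array. The stomach genes Gkn1 and Gkn2 and the lung gene Sftpc passed on 0 arrays, at 166 ± 114, 545 ± 305 and 634 ± 394. Gkn3 had a pair of probe sets: 1438648_x_at, with the higher mean of log2 signals, had 1015 ± 163 and passed on 1 array. The other, 1429286_at, read 1056, 1391, 1300 and 459 (1052 ± 420) and missed the threshold on array 4 alone. Without array 4 (54.1% of all named genes), or with calls on at least 3 arrays (55.8%), it brought the count to 2 of 6. With the 75th percentile of the receptor probe sets as threshold (64.9%), Gkn3 and Cnmd both passed and the count was 3 of 6.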

How the data were processed

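RNA of 1 molar pool was measured on 4 arrays. The authors deposited 1 linear intensity per probe set and array, made with MAS5 per the submitters' processing notes; version and settings: not given in the sources used here. Each array had a trimmed mean (2% removed at each end) of 2500. MAS5 subtracts mismatch signal, so low values are noisy. From the deposited intensity values, means, SDs, ranks, log2 deviations and calls above background were computed (Python 3.11.15, pandas 2.3.3, numpy 2.4.6). Of 45101 probe sets, 34945 named 1 gene, 932 several and 9160 none, and 64 were controls and left out. For each gene the probe set with the largest mean on the log2 scale was used. Titles gave the replicate numbers.

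The genes, lists, background rule and alternatives were chosen with earlier results of these data known. Named genes are the 6 genes, the listed genes, the 3 nearest genes of each and tissue markers. Alternatives were other thresholds (99th and 75th percentile), 56 testis and retina probe sets as background, calls on at least 3 arrays, quantile normalization, no shared-sequence probe sets, the median probe set (the lower of the middle pair), leaving out each array, and a one-sided limma test (version 3.58.1) with a mean-variance trend and Benjamini-Hochberg adjustment. The limma step was also run on simulated data in which all genes meant to fail lay well below the threshold. That run therefore did not try false calls near the threshold.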

Additional observations from a re-analysis of the deposited data

Results flagged for a closer look

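In 5 of 78 sets of 4 log2 signals (the 19 probe sets and the brightest probe set of each of the 59 listed genes), 1 array lay apart from the other 3 by a gap test. Chance gives about 1 in 20, or 3.9 of 78. App 1438373_at was low on array 4 (4.66, others 7.70 to 8.17), below background throughout. Sftpc was low on array 4 (6.31, others 9.30 to 9.89) and A2m on array 3 (9.04, others 9.76 to 9.88), also below background. Among genes above background, Kat5, an acetyltransferase that binds the App tail complex, was low on array 3 (12.36, others 12.74 to 12.79) and Ide was low on array 1 (13.41, others 13.57 to 13.60).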

How the results depend on the processing

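With both other percentiles, the testis and retina background, calls on at least 3 arrays, quantile normalization and each array left out, 6 of 6 genes and 16 of 19 probe sets stayed above background. Of all named genes, 64.9% were above background with the 75th percentile, 55.8% with calls on at least 3 arrays and 54.1% without array 4. No share of all named genes is given for the rest of these settings. Nothing is read from the counts under them, here or for the listed genes. Without shared-sequence suffixes, _a_at included, 3 of 4 measured genes and 4 of 6 probe sets stayed above background. Of the named genes then left, 46.6% were above background. Clu and Aplp2 had no probe set left, Itm2b was represented at 101752 and App at 187. With the median probe set 5 of 6 genes passed (34.7% of all named genes), App being lost. Mean signals were then 139516 for Clu, 13734 for Itm2a, 101752 for Itm2b, 324 for App and 14920 for Aplp2. Leaving out each array moved the Clu mean between 189907 and 223841. The listed genes above background numbered 27 with the median probe set, 34 of 53 without suffixes and 37 to 43 of 59 otherwise. The limma test called 38 of 59 listed genes, and 51.1% of all named genes. These 38 were not the same genes: the test gained Psen2 (adjusted p = 0.0088) and lost Apbb3 (adjusted p = 0.081). Gamma-secretase was thus 5 of 5 and the adaptors 9 of 11. The limma p-values rest on the technical spread of 1 pool. No paired analysis was possible because there is 1 group.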

Other observations

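Macrophage markers were above background for 5 of 5, with Csf1r at 20413 ± 2425 and C1qa, of the first complement component, at 4060 ± 250 (SD, n = 4). Trem2, a receptor of such cells, had 1082 ± 228 and passed on 2 arrays. Endothelial markers were above background for 5 of 5, with Egfl7 at 7975 ± 377.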
